A study of Mus musculus with 30 samples.

Results

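Pola1, Smc1a, Stag2, Brcc3, Fancb, Haus7, Cenpi and Ercc6l are X-linked genes that work in DNA replication, sister chromatid cohesion, DNA repair and chromosome segregation. The 8 genes were taken by symbol from a count table of 55421 genes, of which 55240 matched the GENCODE M21 annotation and 2585 lie on the X chromosome. No expression value entered the rule for taking them, though earlier results of these data were known when they were chosen. Bulk RNA-seq was performed on 30 libraries of female mouse embryonic stem cells (mESCs) in 17 groups, to ask how the level of a gene responds when 1 of its 2 X-linked copies is lost. The cells are F1 hybrids of 129/Sv and Cast/Ei, so that reads over a sequence difference can be assigned to the 129 or the Cast copy.

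XX Wildtype and XX Rnf12 cells keep both X chromosomes. XX Rnf12 is heterozygous for a deletion of Rnf12 (symbol Rlim, an X-linked ubiquitin ligase) on the 129 X. XO XCastO129 cells have lost the 129 X and XO X129OCast cells have lost the Cast X. A further 13 groups carry a large heterozygous deletion on the 129 X in the Rnf12 +/- background (Deletion A, B, AB, C, D, E, F, C-G, H, I, J, I-TEL and K). In these lines the copy left is the Cast copy. The deletion lines comprise 22 libraries, and 4 of them (A, B, AB and C-G) have 1 library, while each of the other groups has 2. The paired libraries of a deletion line come from separate clones. The study describes the libraries of XX and XCastO129 cells as independent clones as well, which the labels do not state. For X129OCast no source used here says so, and the spread between its 2 libraries may be technical. All groups share 1 estimate of spread per gene, so p-values for X129OCast do not rest on its own libraries alone. The deletion lines keep a neomycin resistance cassette, and all cells were grown on feeder fibroblasts that were depleted before RNA was taken. Deletions J and I-TEL were made in a second, independently derived Rnf12 +/- line.

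The segments removed differ in which of the 8 genes they cover. Deletion C removed Stag2, Deletion F removed Pola1, Deletion E removed Brcc3 and Haus7, Deletion J removed Cenpi and Deletion K removed Smc1a. The larger Deletion C-G removed 5 of them (Pola1, Stag2, Brcc3, Haus7 and Ercc6l), and Deletion I-TEL removed 3 (Smc1a, Fancb and Cenpi). Deletions A, B, AB, D, H and I covered none.

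Pola1 encodes the catalytic subunit of DNA polymerase alpha, which with primase starts each new DNA strand at the replication fork. Smc1a encodes an arm of the cohesin ring and Stag2 a subunit that binds the ring. Cohesin holds sister chromatids together from S phase until anaphase and folds chromatin into loops. Brcc3 encodes BRCC36, a deubiquitinase of the BRCA1-A and BRISC complexes, and Fancb a subunit of the Fanconi anaemia core complex, which acts at DNA crosslinks. Haus7 encodes a subunit of augmin, which branches spindle microtubules. Cenpi encodes a protein of the inner kinetochore and Ercc6l encodes PICH, a translocase found on ultrafine anaphase bridges. mESCs divide rapidly and use all of these functions.

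In mm10 coordinates, the 8 genes are spread over the X chromosome. Stag2 (ENSMUSG00000025862, chrX:42149317-42277185, plus strand) is the most centromere-proximal and Fancb (ENSMUSG00000047757, chrX:164980592-164997272, plus strand) the most distal. Between them lie Haus7 (ENSMUSG00000031371, chrX:73437315-73459044, minus strand), Brcc3 (ENSMUSG00000031201, chrX:75416628-75454001, plus strand), Pola1 (ENSMUSG00000006678, chrX:93304767-93632155, minus strand), Ercc6l (ENSMUSG00000051220, chrX:102141716-102157091, minus strand), Cenpi (ENSMUSG00000031262, chrX:134308084-134362639, plus strand) and Smc1a (ENSMUSG00000041133, chrX:152016428-152062694, plus strand). All are protein-coding. None shared exon bases with another gene on the same strand, and 28 exon bases of Stag2 overlapped the antisense gene Gm37564.

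RefSeq promoters of 300 bases (250 before and 50 after the start, GRCm38.p6) were found for 6 of the 8 genes, all but Stag2 and Ercc6l. Of these, Pola1 and Smc1a held a letter match to an E2F site, the element through which many S phase genes are controlled. The windows of 30 bases are printed 5′ to 3′ on the strand of the gene, with the match in capitals. They lie at chrX:93632275-93632304 for Pola1, where the match begins at -138 from the start, and at chrX:152016448-152016477 for Smc1a, where it begins at 37.
Pola1: gtcatcacaggGCGCCAAAtgcactcccgc
Smc1a: cggcttgcactgcgctaTTTCCCGCgcggg

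The words searched were TTTCCCGC, TTTCGCGC, TTTGCCGC and TTTGGCGC on both strands, and 2.26% of 32851 mouse promoters (744) held at least 1 of them. The CCAAT box, searched as CCAAT on both strands, was present in each of the 6 promoters and in 37.4% of all promoters (12289). The first matches in the 6 promoters are shown because the letters CCAAT are the feature shared by all of them. These windows lie at chrX:93632174-93632203 (Pola1), chrX:152016398-152016427 (Smc1a), chrX:75416501-75416530 (Brcc3), chrX:164980380-164980409 (Fancb), chrX:73459104-73459133 (Haus7) and chrX:134308080-134308109 (Cenpi). A match describes the letters in the window and is not a measured binding site.
Pola1: ccaggccgctgATTGGctttcgtactggcg
Smc1a: aggaaatcgtgATTGGcttggacttattat
Brcc3: cacccaacgtcCCAATgctttgctagccga
Fancb: ctccacactgtCCAATcccatagtgttgtc
Haus7: agagcggcagcCCAATgggaaggcttgttg
Cenpi: cggcattcgagCCAATtagtttttggctga

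The libraries held 8816184 to 21181405 counts. They fell into 3 sets by library name, with 6 libraries (XX Wildtype, XX Rnf12 and Deletion E), 20 libraries (the other deletion lines) and 4 libraries (both XO lines). The XO libraries were sequenced as single reads of 50 bases and the others as read pairs of 50 bases, so read type, library set and the loss of an X cannot be told apart in the XO comparisons. All 10 mESC markers were above 79 TPM (counts scaled by gene length and depth to a fixed library total) in every library, and no feeder fibroblast marker was at 0. Rlim was at 193.1 and 210.9 TPM in XX Wildtype, 77.6 and 79.7 TPM in XX Rnf12, and 3.53 TPM in both XO X129OCast libraries, whose only X carries the deletion.

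With both copies present, the 8 genes differed widely in level. In XX Rnf12 the mean of the 2 libraries was 215.8 TPM for Smc1a, 172.9 TPM for Haus7, 100.1 TPM for Ercc6l, 98.3 TPM for Pola1, 67.3 TPM for Stag2, 41.9 TPM for Cenpi, 32.8 TPM for Fancb and 27.2 TPM for Brcc3. In that order the SDs of Ercc6l (8.55 TPM) and Pola1 (15.7 TPM) were larger than the distance between these neighbours. Between XX Wildtype and XX Rnf12 none of the 8 genes passed the test (edgeR, Benjamini-Hochberg adjusted p under 0.05, against 2.88% of all genes). Stag2, 1 of the 8, had an unadjusted p under 0.05. With 2 libraries each this does not show that the levels were alike. With XX Wildtype as the reference, the calls of Stag2, Pola1 and Fancb in XCastO129 changed, as given below. Stag2 was at 66.6 and 68.1 TPM in XX Rnf12 and at 56.6 and 55.9 TPM in XX Wildtype.

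**Figure D1:**
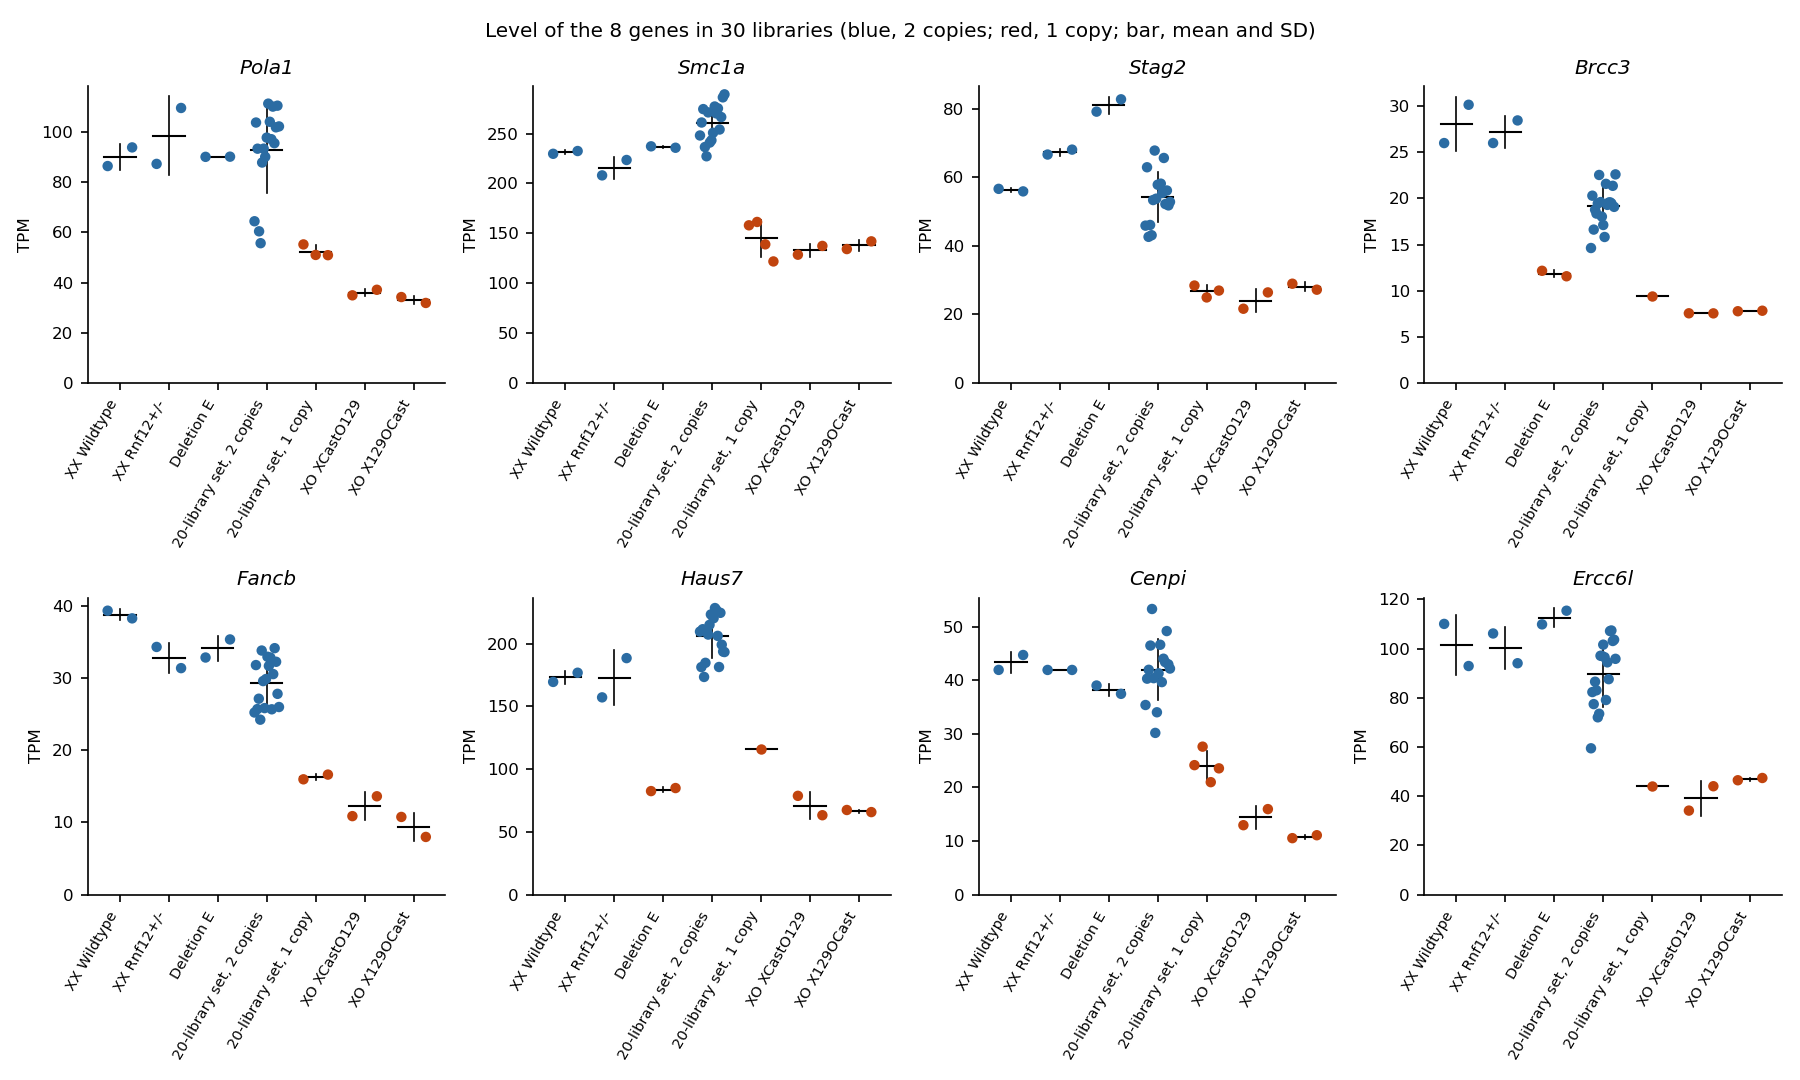
Level of the 8 genes in TPM (vertical axis, linear from 0) in XX Wildtype, XX Rnf12, Deletion E, the 20-library set split by copies kept, and the 2 XO lines. Each point is a library, blue with 2 copies and red with 1, and the bar gives the mean and SD. In the 20-library set the red points lie below all blue points for each gene, closest for Pola1 (55.2 against 55.7 TPM).

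To ask whether loss of a copy lowered each gene, the lines whose deletion covers it were compared with the lines of the same 20-library set that keep both copies. All 8 genes were lower with 1 copy, and for none of them did the libraries with 1 and 2 copies overlap. For Brcc3, Haus7 and Ercc6l this sets 1 library against 19, and the share of all genes without overlap was not counted. The mean with 1 copy was between 49.1% (Ercc6l) and 57.4% (Cenpi) of the mean with 2. In total level, with no correction for copy number, all 8 passed the edgeR test as lower. Among all 16952 genes tested, the share lower was 6.1% in C and C-G, 0.908% in C-G, 2.21% in C-G and F, 6.38% in I-TEL, 14.5% in I-TEL and J and 3.75% in I-TEL and K. Most of the genes tested are autosomal and keep both copies. Of the 710 X-linked genes tested, which each deletion covers only in part, those lower numbered 147, 123, 120, 122, 130 and 97, in the same order. A lower total level was therefore not particular to the 8 genes. In bulk samples less RNA per cell and fewer expressing cells cannot be told apart.

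Among the replication and cohesin genes, Pola1 was at 51.0 and 50.9 TPM in Deletion F and 55.2 TPM in Deletion C-G. In the 17 libraries with both copies it ranged from 55.7 to 111.2 TPM with a median of 97.0 TPM, so that the lowest of these nearly met the highest library with 1 copy. The total level fell by 0.75 on the log2 scale (SE 0.0641, adjusted p = 1.94e-06).

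Smc1a was at 158.1 and 161.4 TPM in Deletion I-TEL and at 139.0 and 121.9 TPM in Deletion K. With both copies it ranged from 227.2 to 289.3 TPM (median 263.8 TPM, 16 libraries), well above every library with 1 copy. The log2 difference in total level was -0.88 (SE 0.0398, adjusted p = 1.55e-10).

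Stag2 was at 28.4 and 25.0 TPM in Deletion C and 26.97 TPM in Deletion C-G, against 42.6 to 67.8 TPM (median 53.8 TPM) in the 17 libraries with both copies. The log2 difference in total level was -0.99 (SE 0.0728, adjusted p = 1.42e-07). The 3 libraries with 1 copy lay close together and well below those with both.

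The repair genes were also lower with 1 copy. Brcc3 was at 9.47 TPM in the single Deletion C-G library, against 14.6 to 22.6 TPM in 19 libraries with both copies (log2 difference -0.997, SE 0.127, adjusted p = 0.000225). Fancb was at 16.0 and 16.6 TPM in Deletion I-TEL, against 24.2 to 34.1 TPM in 18 libraries (log2 difference -0.89, SE 0.112, adjusted p = 2.95e-05). Deletion C-G has no replicate, and the test takes its spread from the other groups.

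The genes of chromosome segregation followed. Haus7 was at 115.8 TPM in Deletion C-G and at 173.5 to 228.5 TPM in 19 libraries with both copies (log2 difference -0.83, SE 0.116, adjusted p = 0.00053). Ercc6l was at 44.0 TPM in Deletion C-G and at 59.4 to 107.3 TPM with both copies (log2 difference -0.98, SE 0.122, adjusted p = 0.000214). Cenpi was at 24.1 and 27.6 TPM in Deletion I-TEL and 21.0 and 23.5 TPM in Deletion J, against 30.2 to 53.3 TPM in 16 libraries (log2 difference -0.81, SE 0.0628, adjusted p = 2.6e-08).

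Deletion E could be compared with the XX lines of its own library set. Brcc3 was at 12.16 and 11.57 TPM in Deletion E, against 26.0 to 30.1 TPM in the 4 XX libraries. Haus7 was at 82.5 and 85.0 TPM, against 157.3 to 188.6 TPM. Neither gene overlapped between the groups, where the share of all genes without overlap was not counted. Both passed the test in total level (log2 differences -1.26 and -1.08, adjusted p = 3.33e-07 and 1.15e-06), while 1.3% of all genes were called lower. Stag2, which keeps both copies in Deletion E, was at 79.1 and 82.7 TPM there and above the XX lines (log2 difference 0.36, SE 0.0901, adjusted p = 0.0401). This call was lost when the 6 libraries of the set were fitted alone, where edgeR called 0 genes in the whole table.

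The next question was whether the copy left gave more RNA than 1 of 2 copies does. For this the copy number entered the model. Where both copies give equal RNA, a log2 difference of 0 per copy means that the level followed the copies. A value of 1 would mean that it was fully restored. With both copies present, 58.4% of allelic reads of Brcc3 and 44.7% of those of Cenpi were 129 reads, against 47.8% to 52.6% for the other genes read by allele. For Brcc3 and Cenpi 0 is therefore not the level of an unchanged kept copy, and the part of this in their values was not tested. After a covering deletion, 2 of the 8 genes passed the test per copy, Pola1 and Cenpi, both higher. Genes that a deletion did not cover were called as well. In I-TEL and K, which keep both copies of Pola1, Pola1 was 0.19 higher (adjusted p = 0.032), and in I-TEL and J, which keep both copies of Ercc6l, Ercc6l was 0.24 higher (adjusted p = 0.00816). In C-G and F, Pola1 was 0.25 higher per copy on the log2 scale (SE 0.0641, adjusted p = 0.0331), or 119% of the reference. In that contrast 2 of 10 feeder fibroblast markers were lower, Postn (-1.68) and Col3a1 (-1.45), with a median of -1.06 over the 10, and the part of this in the value of Pola1 was not tested. Cenpi was 0.19 higher (SE 0.0628, adjusted p = 0.0287), or 114%. Of all genes tested, 3.5% were called in either direction in C-G and F and 30.7% in I-TEL and J.

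Both calls depended on single libraries. Pola1 had an adjusted p of 0.119 without the Deletion A library, 0.0889 without Deletion C-G, 0.0979 without replicate 1 of Deletion F, 0.0544 without replicate 2 of Deletion C and 0.0501 without replicate 1 of Deletion J. Cenpi had an adjusted p of 0.19 without replicate 2 of Deletion I-TEL, 0.162 without replicate 2 of Deletion J, 0.0877 without Deletion A and 0.0541 without replicate 1 of Deletion C. By line, Cenpi was 0.27 higher in Deletion I-TEL (adjusted p = 0.0253) and 0.10 in Deletion J (adjusted p = 0.464). Both lines come from the second Rnf12 +/- line, so for Cenpi the founder and the loss of a copy cannot be told apart. In the same contrast 8 of 10 feeder fibroblast markers were higher, with summed levels of 908 to 1031 TPM in the 4 libraries against 593 to 1063 TPM over the set, and the median of 849 genes on chromosome 8 was 0.40 higher. The part of these shifts in the value of Cenpi was not tested.

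Smc1a was 0.12 higher per copy (SE 0.0398, adjusted p = 0.059) and did not pass, with 8.34% of all genes called, though it did without replicate 2 of Deletion F or of Deletion K (adjusted p = 0.0412 and 0.0354). The value was 0.24 in Deletion I-TEL (adjusted p = 0.00372) and 0.01 in Deletion K (adjusted p = 0.988). Deletion I-TEL comes from the second Rnf12 +/- line, 3 of 10 feeder markers were higher in it (median 0.84 over the 10), and the median of chromosome 8 was 0.37 higher. The part of these in the value of Smc1a was not tested. Stag2 had a difference per copy of 0.01 (95% interval -0.14 to 0.16, adjusted p = 0.979) with 12.5% of genes called in C and C-G. Brcc3 stood at 0.00 (-0.26 to 0.27, adjusted p = 1) and Ercc6l at 0.02 (-0.24 to 0.27, adjusted p = 0.997). Haus7 stood at 0.17 (-0.08 to 0.41, adjusted p = 0.644) and Fancb at 0.11 (-0.12 to 0.35, adjusted p = 0.58). The shares of all genes called were 0.336% in C-G and 14.4% in I-TEL. The upper limits for Haus7, Fancb, Brcc3 and Ercc6l lie above the 0.25 measured for Pola1, and that for Stag2 lies below it.

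In Deletion E, neither gene passed per copy, with 2.2% of all genes called. Brcc3 was at -0.26 per copy (95% interval -0.46 to -0.05, adjusted p = 0.184), with an unadjusted p under 0.05, and Haus7 was at -0.09 (-0.28 to 0.11, adjusted p = 0.716). Deletion I-TEL against Deletion J compares lines from the same founder, of which only I-TEL lost Smc1a and Fancb. Per copy none of the 8 genes was called there, none had an unadjusted p under 0.05, and 0.0413% of all genes were called. The value of Smc1a was 0.11 (-0.04 to 0.26) and that of Fancb -0.07 (-0.37 to 0.24).

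**Figure D2:**
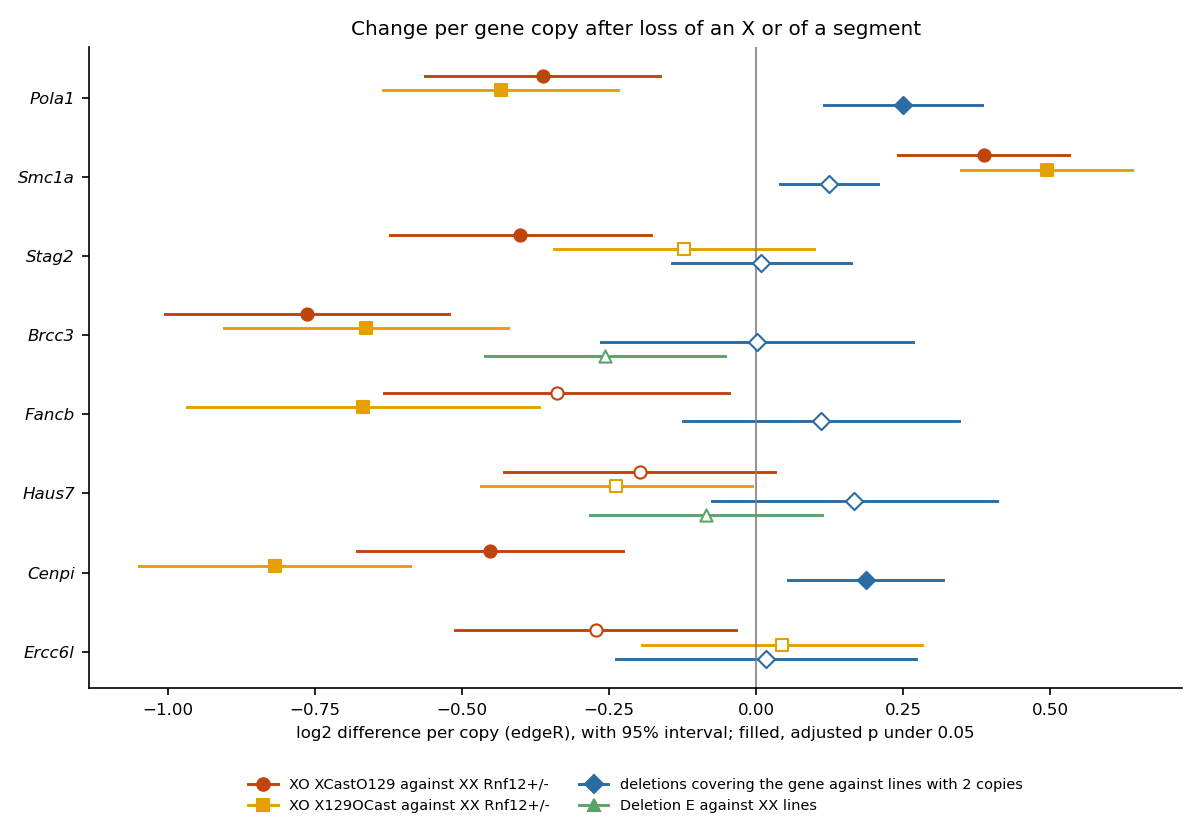
Log2 difference per copy of the 8 genes (horizontal axis) in XO XCastO129 and XO X129OCast against XX Rnf12, in covering deletions against lines of the same set with 2 copies, and in Deletion E against the XX lines. Lines are 95% intervals and filled symbols have an edgeR adjusted p under 0.05. After a covering deletion the values lie between 0.00 and 0.25, while in XO XCastO129 only Smc1a, at 0.39, lies to the right of 0.

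Pola1 varied most among libraries that keep both copies of it. Its CV over the 17 libraries of the set was 18.4%, against 7.05% for Smc1a. It was at 64.4 TPM in Deletion A and at 60.4 and 55.7 TPM in Deletion C, while the other 14 libraries lay between 87.7 and 111.2 TPM. Neither deletion covers Pola1. Both alleles were read in these lines, with 90 Cast CPM (Cast counts scaled to the autosomal Cast counts of the library) in Deletion A, and 107 and 83 Cast CPM in Deletion C, against 110 to 188 in the other lines of the set that keep both copies.

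Deletion C was singled out after its values were seen. Against the other lines of the set, Pola1 was at 61.1% of the reference there (log2 difference -0.71, SE 0.0725, adjusted p = 1.16e-06), with 32.3% of all genes called in that line. Smc1a was lower (log2 difference -0.20, adjusted p = 0.00629) and Cenpi higher (0.27, adjusted p = 0.0135), while Stag2, the gene that the deletion covers, stood at 0.01 per copy. The summed level of 14 mitosis genes was 3252 and 3328 TPM in Deletion C and 3173 TPM in Deletion A, against a range of 2519 to 3328 TPM over the set, and 10 of the 14 were called higher in Deletion C. Rlim was at 143.8 and 106.8 TPM in Deletion C, against a median of 71.1 TPM over the set. The part of these shifts in the level of Pola1 was not tested. With Deletions A and C left out of the reference, an alternative chosen after seeing the data, the rise of Pola1 per copy in C-G and F was 0.11 (adjusted p = 0.421).

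**Figure D3:**
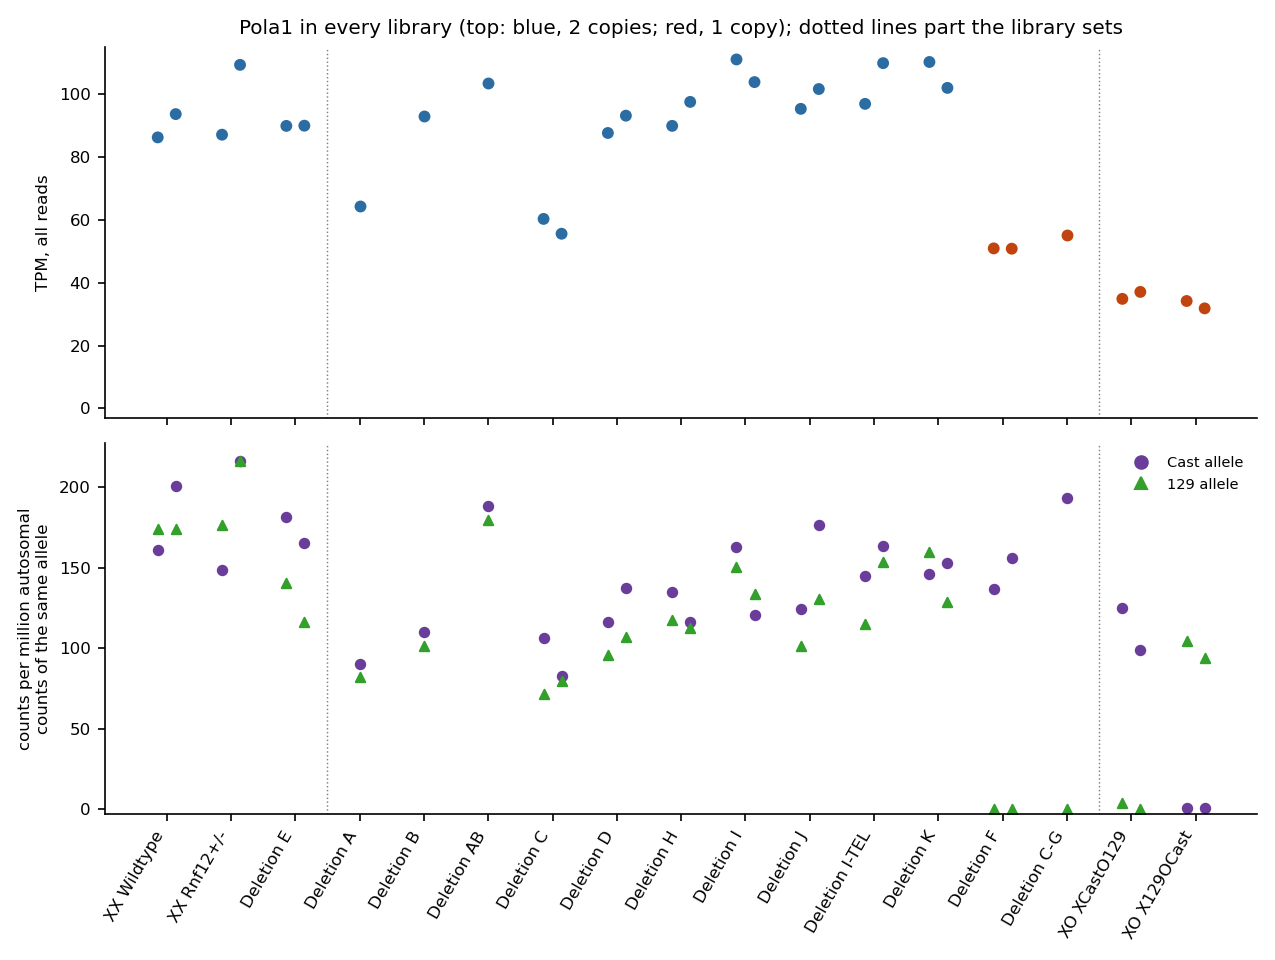
Pola1 in every library, with TPM of all reads above (blue, 2 copies, red, 1 copy) and CPM of each allele below, scaled to autosomal counts of the same allele (circles, Cast, triangles, 129). Dotted lines part the library sets. Deletions A and C sit at 55.7 to 64.4 TPM with both alleles read, near the 50.9 to 55.2 TPM of Deletions C-G and F, whose 129 counts are at 0, while the XO lines sit at 31.9 to 37.1 TPM.

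Loss of a whole X was then compared with XX Rnf12. In total level all 8 genes were lower in both XO lines. Among all genes, 20.1% were called lower in XCastO129 and 25.4% in X129OCast. Most of these are autosomal and keep both copies. Of the 710 X-linked genes tested, 443 were called lower in total level in XCastO129 and 438 in X129OCast. A lower total level was therefore not particular to the 8 genes. The members kept from 29.4% (Brcc3) to 65.4% (Smc1a) of the XX Rnf12 level in XCastO129 and from 28.4% (Cenpi) to 70.4% (Smc1a) in X129OCast. Both comparisons share the same 2 XX Rnf12 libraries. Of the 10 mESC markers, 2 were higher and 4 lower in XCastO129 and 1 higher and 5 lower in X129OCast, with Nanog (-0.83 and -1.44), Sox2 (-1.08 and -0.82), Klf4 (-0.58 and -1.08) and Tfcp2l1 (-0.91 and -1.41) lower in both. The part of this shift in the values of the 8 genes was not tested.

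Per copy, 5 of the 8 genes passed in XCastO129, of which 4 were lower (Pola1, Stag2, Brcc3 and Cenpi) and 1 higher (Smc1a). Among all genes, 17% were called higher and 18.2% lower, and among the 710 X-linked genes 22.4% and 21.4%. In X129OCast 5 of 8 passed again, with Pola1, Brcc3, Fancb and Cenpi lower and Smc1a higher, against 22.4% higher and 23.9% lower over all genes and 25.2% and 28.5% over X-linked genes. The median of the 8 genes was -0.35 in XCastO129, where that of all genes was -0.03 and that of X-linked genes -0.09. In X129OCast it was -0.34, against -0.04 and -0.15. All 8 are protein-coding, and the median of X-linked protein-coding genes was -0.13 in XCastO129 and -0.21 in X129OCast.

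Of the members, only the cohesin gene Smc1a was called higher per copy in the XO lines. It was at 128.6 and 137.4 TPM in XCastO129 and 134.3 and 142.0 TPM in X129OCast, against 208.1 and 223.5 TPM in XX Rnf12, so that all 4 XO libraries lay above 1 copy's share of the reference. Per copy the log2 difference was 0.39 (SE 0.0698, adjusted p = 0.000275) in XCastO129 and 0.49 (SE 0.0697, adjusted p = 1.26e-05) in X129OCast.

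Stag2, the other cohesin gene, was at 21.7 and 26.4 TPM in XCastO129 and 29.0 and 27.2 TPM in X129OCast. Per copy it was lower in XCastO129 (log2 difference -0.40, SE 0.106, adjusted p = 0.0064). In X129OCast it stood at -0.12 (95% interval -0.34 to 0.10, adjusted p = 0.357). The call in XCastO129 did not hold without replicate 1 of that line (-0.27, adjusted p = 0.106) or with XX Wildtype as the reference (-0.12, adjusted p = 0.402).

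The polymerase gene Pola1 was at 34.9 and 37.1 TPM in XCastO129 and 34.2 and 31.9 TPM in X129OCast, against 87.2 and 109.4 TPM in XX Rnf12. Per copy the log2 difference was -0.36 (SE 0.0955, adjusted p = 0.00612) and -0.43 (adjusted p = 0.00108). Without replicate 2 of XX Rnf12 the first was -0.20 (adjusted p = 0.147), and with XX Wildtype as the reference it was -0.21 (adjusted p = 0.0839).

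Brcc3 had the lowest value per copy in XCastO129. It was at 7.55 and 7.56 TPM in XCastO129 and 7.78 and 7.84 TPM in X129OCast, against 26.0 and 28.4 TPM in XX Rnf12. The log2 difference per copy was -0.76 (SE 0.116, adjusted p = 4.54e-05) and -0.66 (SE 0.115, adjusted p = 0.000117). Among lines with both copies, the mean of the 20-library set was 0.703 of that of XX Rnf12, the largest shift between sets for any of the 8 genes.

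Cenpi was at 12.9 and 15.9 TPM in XCastO129 and 10.5 and 11.1 TPM in X129OCast, against 41.9 TPM in both XX Rnf12 libraries. Per copy it was lower in both lines (-0.45, adjusted p = 0.00314, and -0.82, adjusted p = 7.53e-06), the former with an adjusted p of 0.0647 without replicate 1 of XCastO129. Fancb was at 10.9 and 13.6 TPM in XCastO129 and 10.8 and 7.98 TPM in X129OCast. Its difference per copy was -0.34 (adjusted p = 0.0667) in the former and -0.67 (adjusted p = 0.000831) in the latter. With XX Wildtype as the reference the former was -0.56 (adjusted p = 0.00393).

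Haus7 and Ercc6l passed in neither XO line. Haus7 was at 78.7 and 63.3 TPM in XCastO129 (per copy -0.20, 95% interval -0.43 to 0.03) and 67.5 and 65.8 TPM in X129OCast (-0.24, -0.47 to -0.01). Ercc6l was at 34.1 and 44.0 TPM in XCastO129 (-0.27, -0.51 to -0.03) and at 46.5 and 47.4 TPM in X129OCast (0.04, -0.19 to 0.28). When 1 library was left out in turn, the number of genes called in XCastO129 ranged from 4 to 7, with Haus7 called without replicate 1 of the line, and Fancb and Ercc6l without replicate 2.

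The 2 XO lines share read type and library set and each carries 1 copy. None of the 8 genes passed between them, where 6.29% of all genes did. At an unadjusted p under 0.05 there were 4, with Cenpi (0.37, adjusted p = 0.0599) and Fancb (0.33, adjusted p = 0.207) higher in XCastO129 and Stag2 (-0.28, adjusted p = 0.132) and Ercc6l (-0.32, adjusted p = 0.11) lower. Cenpi passed without replicate 1 of XCastO129 (0.50, adjusted p = 0.0205) and Ercc6l without replicate 2 (-0.51, adjusted p = 0.0268).

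Whether loss of the whole X and loss of a segment changed a gene differently was tested as the difference between the 2 contrasts per copy. It passed for 5 of the 8 genes. Relative to the covering deletion, XCastO129 was lower for Pola1 (-0.61, SE 0.115, adjusted p = 0.000663), Stag2 (-0.41, SE 0.129, adjusted p = 0.0211), Brcc3 (-0.77, SE 0.172, adjusted p = 0.00446) and Cenpi (-0.64, SE 0.125, adjusted p = 0.000559), and higher for Smc1a (0.26, SE 0.0803, adjusted p = 0.0179). Fancb (-0.45, adjusted p = 0.0629), Haus7 (-0.36, adjusted p = 0.134) and Ercc6l (-0.29, adjusted p = 0.267) did not pass. Against Deletion E, Brcc3 passed (-0.51, adjusted p = 0.00676) and Haus7 did not (-0.11, adjusted p = 0.533).

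The share of all genes called in these differences was 29.4% against C and C-G, 15.1% against C-G, 24.4% against C-G and F, 31.3% against I-TEL, 38.7% against I-TEL and J, 30.2% against I-TEL and K and 27.1% against E. The XO contrast crosses library sets and read types, and the deletion contrast does not. The references differ as well, XX Rnf12 for the XO line and same-set lines for the deletions. Against XX Rnf12 the covering deletions stood at -0.41 for Stag2, -0.61 for Brcc3 and 0.32 for Smc1a, near the XO values of these genes. Pola1 (0.05) and Cenpi (0.09) stayed above theirs. The part of the reference in these differences was not tested. The call of Stag2 was lost without replicate 1 of XCastO129 (adjusted p = 0.153) or replicate 2 of XX Rnf12 (adjusted p = 0.0536), and that of Smc1a without replicate 2 of XCastO129 (adjusted p = 0.0853) or replicate 1 of XX Rnf12 (adjusted p = 0.0974).

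Allele counts gave a second reading that needs no copy number. Stag2 had no allelic read in the paired libraries and was left out. In lines with both copies the share of 129 reads was 49.3% for Pola1, 50.0% for Smc1a, 47.8% for Fancb, 49.7% for Haus7, 52.6% for Ercc6l, 44.7% for Cenpi and 58.4% for Brcc3. Where a copy was lost, 33 of 5352 allelic reads of the 7 genes (0.617%) came from the lost allele, and Cenpi had 0 of 242. For the covering deletions the 129 reads were 0 of 294 for Pola1 in C-G and F together and 2 of 504 for Smc1a in I-TEL and K. Brcc3 had the highest share of any group, with 6 of 178 reads in Deletion E (3.37%, 95% Wilson interval 1.55% to 7.16%).

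The level of the Cast copy after a covering deletion passed the test for none of the 7 genes, with an unadjusted p under 0.05 for Pola1 (0.37, adjusted p = 0.294) and Smc1a (0.23, adjusted p = 0.274). Among 8622 genes, the share called on the Cast allele was 2.48% in C and C-G, 0% in C-G (567 genes had an unadjusted p under 0.05), 0.302% in C-G and F, 4.2% in I-TEL, 11.8% in I-TEL and J, 2.52% in I-TEL and K and 1.9% in Deletion E. Brcc3 and Haus7 did not pass in Deletion E either (0.16, 95% interval -0.28 to 0.61, and -0.19, -0.64 to 0.26). In Deletion I-TEL alone the Cast copy of Smc1a was called higher (0.43, adjusted p = 0.0455), while in Deletion K it stood at 0.03 (adjusted p = 0.975). The SEs on the Cast copy ran from 0.0956 (Smc1a) to 0.381 (Brcc3), against 0.0398 to 0.127 for all reads.

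In XCastO129 the Cast copy passed for 3 of 7 genes, where 25.5% of all genes did. Pola1 was at 125 and 99 Cast CPM in XCastO129, against 148 and 216 in XX Rnf12 (log2 difference -0.61, SE 0.192, adjusted p = 0.0216). Brcc3 was lower as well (-0.87, adjusted p = 0.0162). On the 129 copy of X129OCast 4 of 7 passed, with 34.1% of 9124 genes called: Pola1 (-0.89, adjusted p = 0.0016), Brcc3 (-1.62, adjusted p = 2.79e-05) and Cenpi (-1.29, adjusted p = 0.00735) were lower and Haus7 (0.79, adjusted p = 0.0466) higher. For Pola1 and Brcc3 the copy that was kept was lower in both XO lines. This depended on the scaling: with library sizes of all reads the Cast copy in XCastO129 stood at 0.24 for Pola1 and -0.02 for Brcc3. The mean share of reads assigned to an allele was 8.20% for Pola1 and 14.3% for Brcc3 in the 6-library set. In the XO libraries it was 11.9% and 16.5%, while the median over whole libraries went from 12.5% to 21.9%. The part of the assignment in these falls was not tested. The calls on the Cast copy rested on single libraries: without replicate 2 of XX Rnf12 the adjusted p was 0.352 for Pola1, 0.122 for Brcc3 and 0.0754 for Haus7, without replicate 1 of XCastO129 it was 0.0832 for Brcc3, and without replicate 2 it was 0.159 for Pola1. On the 129 copy Cenpi had an adjusted p of 0.0882 without replicate 1 of XX Rnf12 and 0.0693 without replicate 1 of X129OCast, while Pola1 and Brcc3 stayed called in each.

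Haus7 went opposite ways by the 2 readings. Its Cast copy was higher in XCastO129 (44 and 60 Cast CPM against 32 in both XX Rnf12 libraries, log2 difference 0.78, adjusted p = 0.014), while all reads per copy gave -0.20. The share of Haus7 reads that could be assigned to an allele was 4.70% in the 6-library set, 5.90% in the 20-library set and 17.7% in the XO libraries. Over whole libraries this share was 12.18% to 12.65% in paired libraries and 21.9% to 22.0% in XO libraries. The part of the assignment in the allelic rise of Haus7 was not tested. The rise on the Cast copy had an adjusted p of 0.0675 without replicate 1 of XX Rnf12 and 0.143 without replicate 2 of XCastO129. That on the 129 copy lost its call when any of 9 single libraries was left out, with adjusted p-values of up to 0.267.

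**Figure D4:**
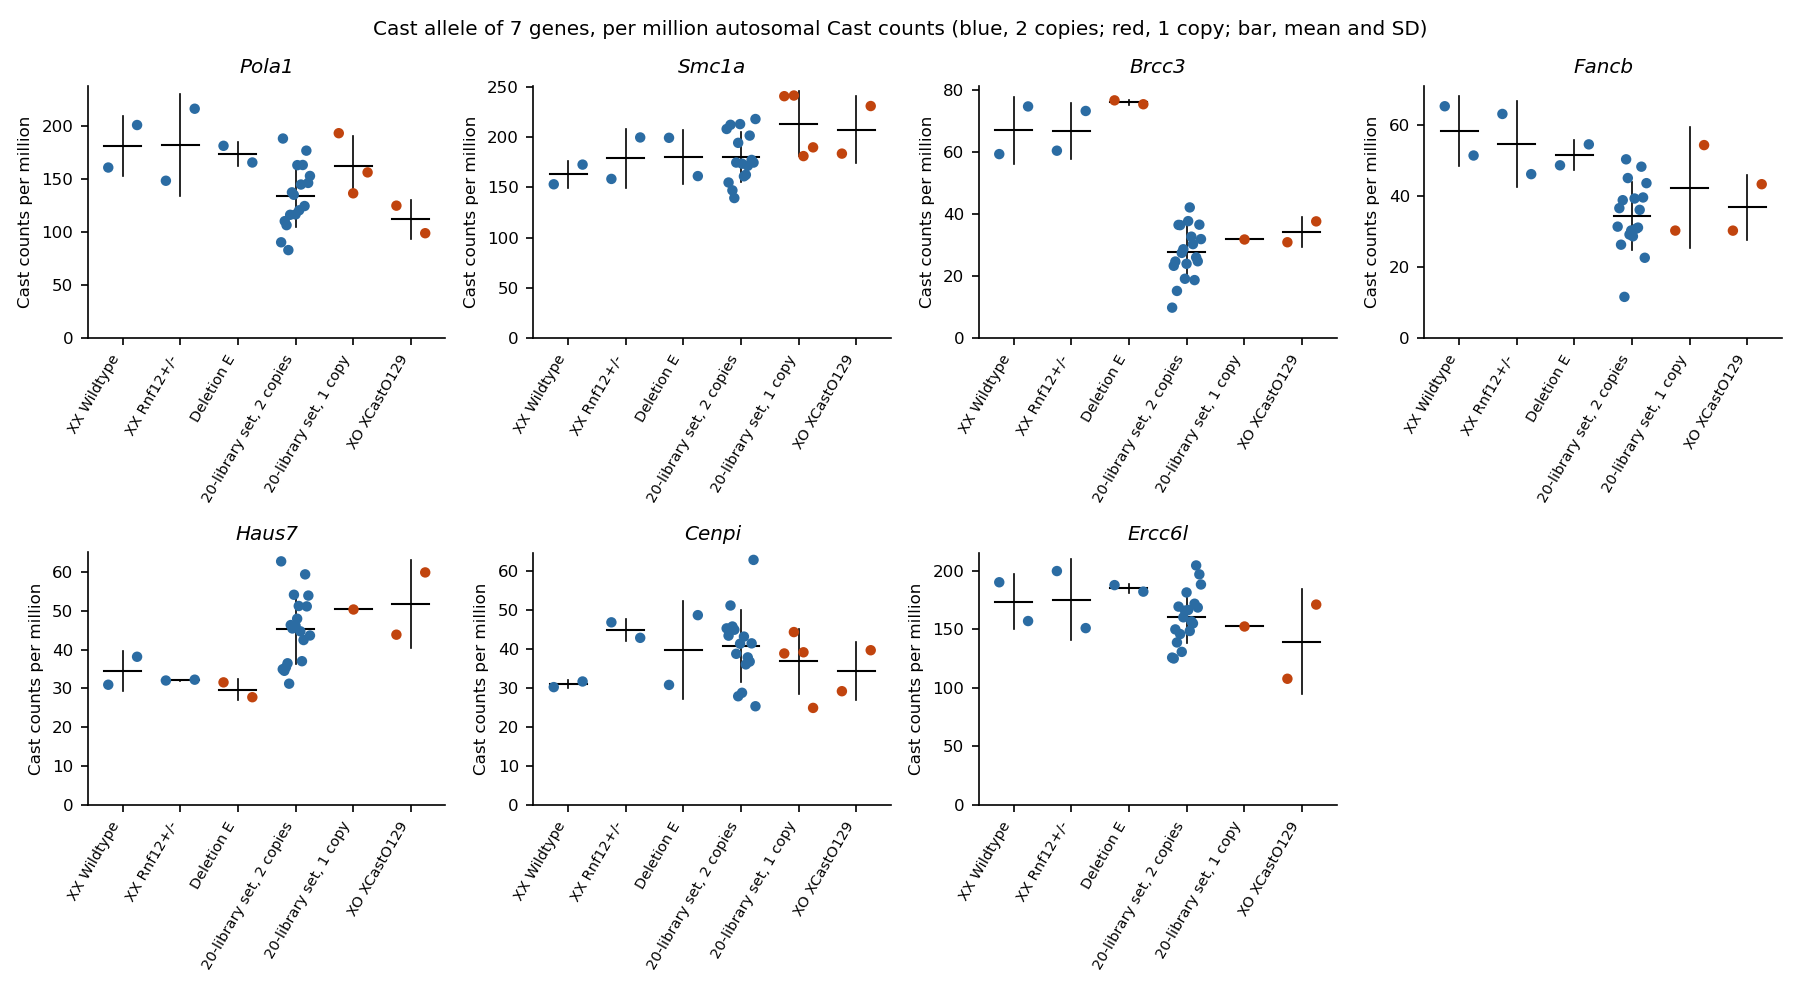
Cast CPM, scaled to autosomal Cast counts (vertical axis, linear from 0) of 7 genes in the groups that carry a Cast X. Each point is a library, blue with 2 copies and red with 1, and the bar gives the mean and SD. The XCastO129 points of Pola1 (99 and 125) lie below both XX Rnf12 points (148 and 216), and those of Haus7 (44 and 60) lie above them (32 and 32).

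The complexes that the 8 genes work in were read for 69 other genes, of which 68 were tested. The lists were chosen with earlier results of these data known. In XCastO129, 6 were higher and 10 lower than in XX Rnf12 (23.5% called), and in X129OCast 9 were higher and 18 lower (39.7%). Of all genes tested, 35.2% and 46.3% were called in these lines.

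The partners of Pola1 and Smc1a within their core complexes were mostly not called. In XCastO129 none of the 3 polymerase alpha-primase partners passed in edgeR (1 had an unadjusted p under 0.05), with Pola2 at 0.16 (adjusted p = 0.124). In X129OCast Prim1, the primase catalytic subunit, was lower (-0.57, adjusted p = 5.38e-05). The other arm of the cohesin ring, Smc3, was at 0.16 (adjusted p = 0.107) and 0.17 (adjusted p = 0.0689), and Rad21, which closes the ring, at 0.03 and -0.09 (adjusted p = 0.772 and 0.344).

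Of 16 cohesin genes tested, 1 was higher and 4 lower in XCastO129, and 1 higher and 7 lower in X129OCast. The cohesin acetyltransferases were lower in both, Esco2 (-0.87 and -1.14, adjusted p = 0.000269 and 1.06e-05) and Esco1 (-0.81 and -0.87, adjusted p = 0.00195 and 0.000717). Stag1, the autosomal counterpart of Stag2, was lower too (-0.34 and -0.45, adjusted p = 0.00942 and 0.000676). The gene that was higher in both was Pds5b (0.54 and 0.75), which regulates release of the ring.

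Among 7 augmin partners Haus3 was lower in both XO lines (-1.21 and -1.34, adjusted p = 4.27e-07 and 8.63e-08), as was Haus6 (-0.64 and -0.82). Haus5 was higher in X129OCast (1.12, adjusted p = 0.000129). Of 16 inner kinetochore partners, 1 was higher and 4 lower in XCastO129 and 1 and 5 in X129OCast, with Cenpp (-0.83 and -0.66) lower and Cenpo (0.41 and 0.41) higher in both, and Itgb3bp (-1.63) lowest in X129OCast. Of 7 genes grouped with Ercc6l at anaphase bridges, 3 were higher and none lower in both lines, led by Bend3 (0.89 and 1.27), with the topoisomerase Top2a (0.34 and 0.71, adjusted p = 0.00161 and 4.21e-07) and the mitotic kinase Plk1 (0.29 and 0.45).

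Among the repair complexes few genes were called in XCastO129. Of 13 Fanconi genes 1 passed in XCastO129, Faap20 (0.51, adjusted p = 0.0022), and 4 in X129OCast, with Faap24 (1.12) and Faap20 (0.92) highest. Of 6 BRCC36 partners none passed in XCastO129 in edgeR, 0 of them at an unadjusted p under 0.05, and Babam2 passed in X129OCast (-0.38, adjusted p = 0.0154).

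As a wider reading of the cell cycle, 23 S phase genes had 6 higher and 1 lower in XCastO129 and 7 and 6 in X129OCast. Of these, 5 that were higher in both lines (Mcm7, Pole, Rfc2, Rfc3 and Rfc5) lie on chromosome 5 beyond 100 Mb, as does Pds5b. The median of the 589 genes tested there was 0.26 in XCastO129 and 0.44 in X129OCast, against -0.04 and -0.05 over autosomes other than 5 and 8. The part of this shift in the values of those genes was not tested. Of 14 mitosis genes, 6 were higher and 2 lower in XCastO129 and 7 and 3 in X129OCast, with Mki67 (0.71 and 0.65) and Cenpe (0.58 and 0.69) among the higher ones.

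**Figure D5:**
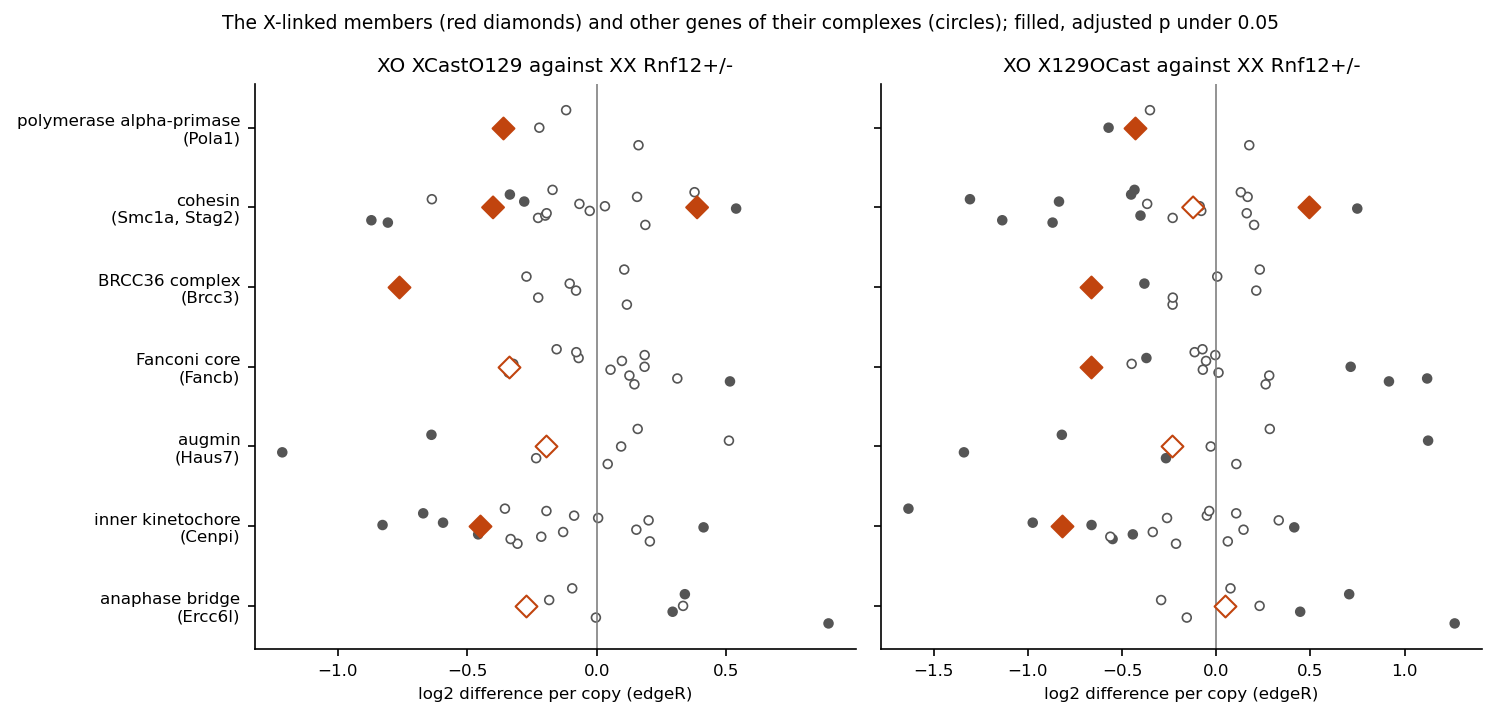
Log2 difference per copy in XO XCastO129 (left) and XO X129OCast (right) against XX Rnf12, by complex. Red diamonds are the X-linked members and circles the other genes of the complex, filled where the edgeR adjusted p is under 0.05. Members and partners lie on both sides of 0, and in the cohesin row Smc1a (0.39 and 0.49) is to the right while Esco2 (-0.87 and -1.14) is to the left.

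In the deletion lines the partners called were 2 of 68 in Deletion E (2.94%, against 2.2% of all genes), 15 in C and C-G (22.1% against 12.5%) and 0 in C-G in edgeR (8 at an unadjusted p under 0.05, against 0.336% called of all genes). They were 4 in C-G and F (5.88% against 3.5%), 16 in I-TEL (23.5% against 14.4%), 27 in I-TEL and J (39.7% against 30.7%) and 4 in I-TEL and K (5.88% against 8.34%). Where Stag2 was lost, in C and C-G, the cohesin genes called were Rec8 (0.63), Rad21 (0.26, adjusted p = 0.0017) and Sgo1 (0.25), all higher, while 5 of 13 Fanconi genes were lower, led by Fancl (-0.63), and 1 was higher, Fancm (0.53, adjusted p = 0.000349). In C-G alone 0 cohesin and 0 Fanconi genes were called in edgeR, with 2 of each at an unadjusted p under 0.05, and in Deletion C alone 32.3% of all genes were called. Where Pola1 was lost, in C-G and F, none of its 3 partners passed in edgeR and 0 had an unadjusted p under 0.05. In I-TEL and J, where Cenpi was lost, 6 inner kinetochore genes were higher and 2 lower, and 3 of the higher ones (Cenpn, Cenpt and Cenpu) lie on chromosome 8, where the median gene was 0.40 higher in these lines.

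Across the 20 libraries of the largest set, the genes whose log2 level per copy followed each member most closely were found by Pearson correlation. Libraries share depth and founder in part, so these values are a description. The closest were Sept11 (r = 0.94) and Fam208a (0.93) for Pola1, Klf8 (0.89) and Sntb2 (0.88) for Smc1a, and Ppp1cb (0.86) and CT030661.1 (0.81) for Stag2. For the repair genes they were Mettl21a (0.74) and Caap1 (0.72) for Brcc3, and Trh (0.83) and Nsdhl (0.82) for Fancb. For the segregation genes they were A430033K04Rik (0.81) and Ndufv1 (0.80) for Haus7, Mob1a (0.92) and Zfp654 (0.91) for Cenpi, and Mat2a (0.93) and Zfp131 (0.91) for Ercc6l. Among the 8 genes themselves the highest correlation was between Smc1a and Fancb (0.66, n = 20), both removed by Deletion I-TEL, and the lowest between Haus7 and Cenpi (-0.30).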

How the data were processed

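RNA was extracted from mESCs grown on feeder fibroblasts and depleted of them by pre-plating, and stranded mRNA libraries were made. Per the labels, the authors used Trim Galore 0.6.7, SAMtools 1.10 and, for alignment against the mouse build mm10, HISAT2 2.2.1. The methods describe masking of the sequence differences, splitting of reads by allele and counting over exons by strand. The counter is named differently in the labels (HTSeq 0.12.4) and the methods (featureCounts). The deposited counts are whole read counts per gene for all, 129 and Cast reads (90 columns, 0 not used), not normalized.

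The 8 genes, lists and tests were chosen with earlier results of these data known. All 30 libraries entered 1 edgeR 4.0.16 quasi-likelihood fit (R 4.3.3) with a term per group, TMM factors from autosomal genes, the log copy number as offset, and genes above a mean of 1 TPM. p-values were Benjamini-Hochberg adjusted over all genes tested. Covering deletions were compared with lines of the same set that keep both copies, where the study used XX Rnf12. Allele fits used autosomal counts of that allele and a mean of at least 10 counts. TPM were computed from the counts and exon lengths. Intervals are 95% and cover counting error only where they are of shares of reads. Same-group libraries differed by more than counting noise (chi-square per degree of freedom 3.42 to 30.0). The scripts were tested on simulated data. Named partners were up to 2 highest and 2 lowest called genes per list, beside genes singled out for their position, chosen after their values were seen. Replicate numbers were not taken to pair the samples.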

Additional observations from a re-analysis of the deposited data

Results flagged for a closer look

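The change per copy differed between loss of the whole X in XCastO129 and loss of a segment, by a test of the difference itself, for 5 genes. The log2 differences were -0.61 for Pola1, 0.26 for Smc1a, -0.41 for Stag2, -0.77 for Brcc3 against Deletion C-G and -0.64 for Cenpi. For Brcc3 the difference also passed against Deletion E, at -0.51. Only the XO side of each difference crosses library sets and read types, and the sides have different references. With XX Rnf12 as the reference of both, the deletion side crosses library sets as well. The covering deletions then came near the XO values for Stag2 (-0.41), Brcc3 (-0.61) and Smc1a (0.32). They did not for Pola1 (0.05) and Cenpi (0.09). Same-set lines with both copies stood at 0.807, 0.703 and 1.21 of XX Rnf12 for Stag2, Brcc3 and Smc1a. For Pola1 and Cenpi they stood at 0.944 and 1.00.

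Reads of the lost 129 allele were found in XCastO129 beyond the 3 counts that an allele at 0 allows. They were 6 of Pola1 in replicate 1 and 5 of Haus7 in replicate 2, of 363 and 170 allelic reads over both libraries (1.65%, 95% Wilson interval 0.76% to 3.56%, and 2.94%, 1.26% to 6.70%).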

How the results depend on the processing

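All 8 genes were called lower in total level in both XO lines and in covering deletions, and both covered genes in Deletion E, with TMM factors from all genes and with each library left out (without Deletion C-G, Brcc3, Haus7 and Ercc6l could not be fitted in the 20-library set). Against XX Rnf12 instead of same-set lines, covering deletions of Stag2 and Brcc3 went from near 0 per copy to a called fall. Stag2 went from 0.01 to -0.41 (edgeR adjusted p = 0.00686) and Brcc3 from 0.00 to -0.61 (adjusted p = 0.0159). For those genes the same-set lines with both copies stood at 0.807 and 0.703 of XX Rnf12, and for Smc1a at 1.21. Pola1 (0.05, adjusted p = 0.76) and Cenpi (0.09, adjusted p = 0.546) were not called with it, and Smc1a was (0.32, adjusted p = 0.00163). The number called there was 1 in place of 2 with no filter on TPM and 1 without Deletions A and C in the reference, the latter chosen after seeing the data, and DESeq2 1.42.0 added Smc1a (adjusted p = 0.0409). With library sizes of all reads in place of Cast reads, the Cast copy in XCastO129 turned to 0.24 for Pola1 (adjusted p = 0.279) and 0.62 for Ercc6l (adjusted p = 0.00326), Smc1a was called (1.15, adjusted p = 1.05e-06) and Brcc3 was not (-0.02, adjusted p = 0.949), where the share of allelic reads differs between read types. Without a filter on TPM, the difference between XCastO129 and deletion of Smc1a was 0.24 (adjusted p = 0.167).

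Leaving out 1 library in turn, the genes called per copy numbered 0 to 3 in covering deletions, 4 to 7 in XCastO129, 5 to 6 in X129OCast and 4 to 6 for the difference. They numbered 0 to 3 on the Cast copy of XCastO129, 2 to 5 on the 129 copy of X129OCast, and 0 to 1 between the XO lines. The lowest values came without the Deletion A library (covering), XX Rnf12 replicate 2 (Cast copy), and XX Rnf12 replicate 1 or X129OCast replicate 1 (129 copy, 2 each). The genes called over the whole table in Deletion E numbered 373, and 23 against XX Rnf12 alone, 1083 without the filter, 600 by DESeq2 and 0 with the 6 libraries alone. For C-G they numbered 57, and 1645 against XX Rnf12, 440 without the filter, 115 with the 20 libraries alone and 131 by DESeq2. Against XX Rnf12 they were 3982 in place of 2115 in C and C-G, 3206 in place of 593 in C-G and F (1168 without the filter) and 2895 in place of 1413 in I-TEL and K.

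The replicate block changed no call of the 8 genes, with 5, 5, 2 and 5 called in XCastO129, X129OCast, covering deletions and their difference. The block is 1 term common to all groups. It cannot take up a replicate shift that only some groups share, so the unchanged calls do not decide whether there is one. Same-numbered samples were taken to share only a number: over 78 pairs of groups the correlation of their deviations had a median of 0.0214 (-0.366 to 0.719) and exceeded 0.1 in 21. The highest was between XX Rnf12 and XX Wildtype, whose summed feeder levels were 1490 and 1244 TPM in replicate 1 and 682 and 624 TPM in replicate 2. Between these groups 0 of the 8 genes were called by edgeR with or without the block (1 at an unadjusted p under 0.05 without it), and Stag2 stood at 0.28 (adjusted p = 0.207) in both.

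Brcc3, Haus7 and Ercc6l rest on 1 library with 1 copy in the 20-library set, so their covering change has no replicate. The XO lines differ from all others in read type. Allele counts of Brcc3, Fancb, Haus7 and Cenpi were low and limit what their Cast values can show.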
